A study of Mus musculus with 19 samples.

Results

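The core circadian clock of the liver was examined through 10 genes, Arntl, Clock, Npas2, Per1, Per2, Per3, Cry1, Nr1d1, Nr1d2 and Dbp, which were taken by gene symbol from the 51826 gene entries of the expression table and were all found. Liver RNA carrying poly(A) tails had been sequenced from 19 female Balb/c mice, each a separate animal with no genetic or drug treatment named and each labelled as 12 weeks old. Of these, 7 were nulliparous (NUL), 6 were at lactation day 10 (LAC) and 6 were at involution day 6, that is 6 days after weaning (ID6). The study compared these stages to follow the maternal liver through lactation and weaning. It names Charles River and The Jackson Laboratory as suppliers of the mice, and which animal came from which supplier, the hour of tissue collection and the lighting schedule are not given in the sources used here. The animal numbers in the sample names run from 1 to 240. Numbers under 200 belong to 3 NUL and 3 LAC mice, and numbers of 200 and above belong to 4 NUL, 3 LAC and all 6 ID6 mice. These ranges of animal number are not a batch that the labels name. Because every ID6 mouse had a number of at least 200, stage and range cannot be told apart when ID6 is compared with lower-numbered mice.

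The circadian clock is a feedback loop of transcription factors that runs in nearly every cell, the hepatocyte included. BMAL1, the product of Arntl, pairs with CLOCK or its relative NPAS2 and activates genes through E-boxes, among them the Per, Cry and Nr1d genes and Dbp. The PER and CRY proteins accumulate and repress their own activators, while the REV-ERB receptors made from Nr1d1 and Nr1d2 repress Arntl, Npas2, Clock and Cry1. DBP, a factor of the PAR bZIP family, acts through D-boxes on rhythmic liver genes. In liver the transcripts of Arntl, Npas2 and Cry1 are known to peak at hours when those of Nr1d1 and Dbp are low, and feeding times, temperature and glucocorticoids are known to shift the phase of the loop.

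Motifs of this loop were looked for in the promoters of the genes, because the genes are known to act on each other and several of them differed together. The RefSeq promoter table of build GRCm38.p6 held 13 promoters of 9 of the 10 genes, and Per2 had no entry. Within the 250 bases before the start, the canonical E-box CACGTG, which reads the same on both strands, was found for 2 genes, Cry1 and Per1, and it occurs in 6.02% of all 32851 promoters, or for 6.86% of genes, in that window. The D-box, searched as TTATGTAA or TTACGTAA on both strands, was found for Per3 only, at 2 sites, against 0.931% of all promoters and 1.1% of genes. The nuclear receptor hexamer AGGTCA, searched on both strands, was found for Clock, Per1 and Nr1d2 and occurs in 14.0% of all promoters, or for 15.8% of genes. The stretches below show the matches of Cry1, Per1 (its E-box), Per3 and Nr1d2 in capitals with 25 bases on either side, 5′ to 3′ on the strand of the gene. The Cry1 stretch lies at chr10:85185084-85185139 on the minus strand, with the E-box 60 bases before the start. The Per1 stretch lies at chr11:69098758-69098813 on the plus strand, with the E-box 166 bases before the upstream of the listed starts, inside the GENCODE span of the gene but in no exon. The Per3 stretch lies at chr4:151044791-151044895 on the minus strand, with D-boxes 205 and 158 bases before the start. The Nr1d2 stretch lies at chr14:18239153-18239208 on the minus strand, with the hexamer 77 bases before the start. The stretches of Cry1, Per3 and Nr1d2 lie upstream of the GENCODE genes. A match is a description of letters and no binding was measured.
Cry1: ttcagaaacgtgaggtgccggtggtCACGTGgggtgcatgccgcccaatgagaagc
Per1: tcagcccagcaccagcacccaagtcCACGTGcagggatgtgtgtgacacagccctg
Per3: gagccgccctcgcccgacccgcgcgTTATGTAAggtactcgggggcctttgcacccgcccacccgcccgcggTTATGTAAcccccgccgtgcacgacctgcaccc
Nr1d2: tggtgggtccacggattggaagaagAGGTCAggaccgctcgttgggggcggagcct

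Levels were given by the authors as TPM, which are scaled to the same total in every mouse and corrected for gene length, so that levels can be compared between genes. Genes at 1 TPM or more numbered 11209 to 11797 per mouse. The 10 top genes held 25.7% to 28.0% of all TPM in NUL, 29.0% to 31.2% in LAC and 26.7% to 28.8% in ID6 mice. TPM keeps no record of read depth, so no counting interval is given. Hepatocyte markers were abundant in all 19 mice. Levels summed over 5 markers were 60470 to 72120 TPM in lower-numbered and 75010 to 95670 TPM in higher-numbered NUL mice. They were 102400 to 113000 and 132700 to 154200 TPM in LAC mice, and 80710 to 113300 TPM in ID6 mice. A sum follows its most abundant members. In the test described below, 1 of the 5 was higher and 0 lower at LAC than at NUL (9.21% of all genes passed). Between the ranges 2 of the 5 were higher and 0 lower (27%).

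Over the 19 mice, Nr1d1 (mean 14.9 TPM) and Arntl (14.4 TPM) stood highest, followed by Cry1 (10.5 TPM), Npas2 (8.55 TPM), Clock (7.32 TPM) and Nr1d2 (7.24 TPM). Per2 (2.25 TPM), Per1 (2.15 TPM), Dbp (1.81 TPM) and Per3 (0.617 TPM) were lower. Nr1d1 exceeded Arntl in 7 of 19 mice and Clock exceeded Nr1d2 in 11 of 19, so these neighbours in the order did not differ beyond the spread between mice. The same held for Per2 and Per1 (11 of 19 mice) and for Per1 and Dbp (11 of 19). The step from Nr1d2 down to Per2 was present in 19 of 19 mice, that from Dbp down to Per3 in 18 of 19, and that from Arntl down to Cry1 in 16 of 19. The genes differed widely in how much they varied. Clock was the steadiest, with a highest level 1.8-fold its lowest, and Arntl came next at 2.3-fold. Cry1, Npas2, Per1, Nr1d1 and Dbp spanned 8.62-fold, 9.47-fold, 9.54-fold, 11.4-fold and 11.7-fold.

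**Figure D1:**
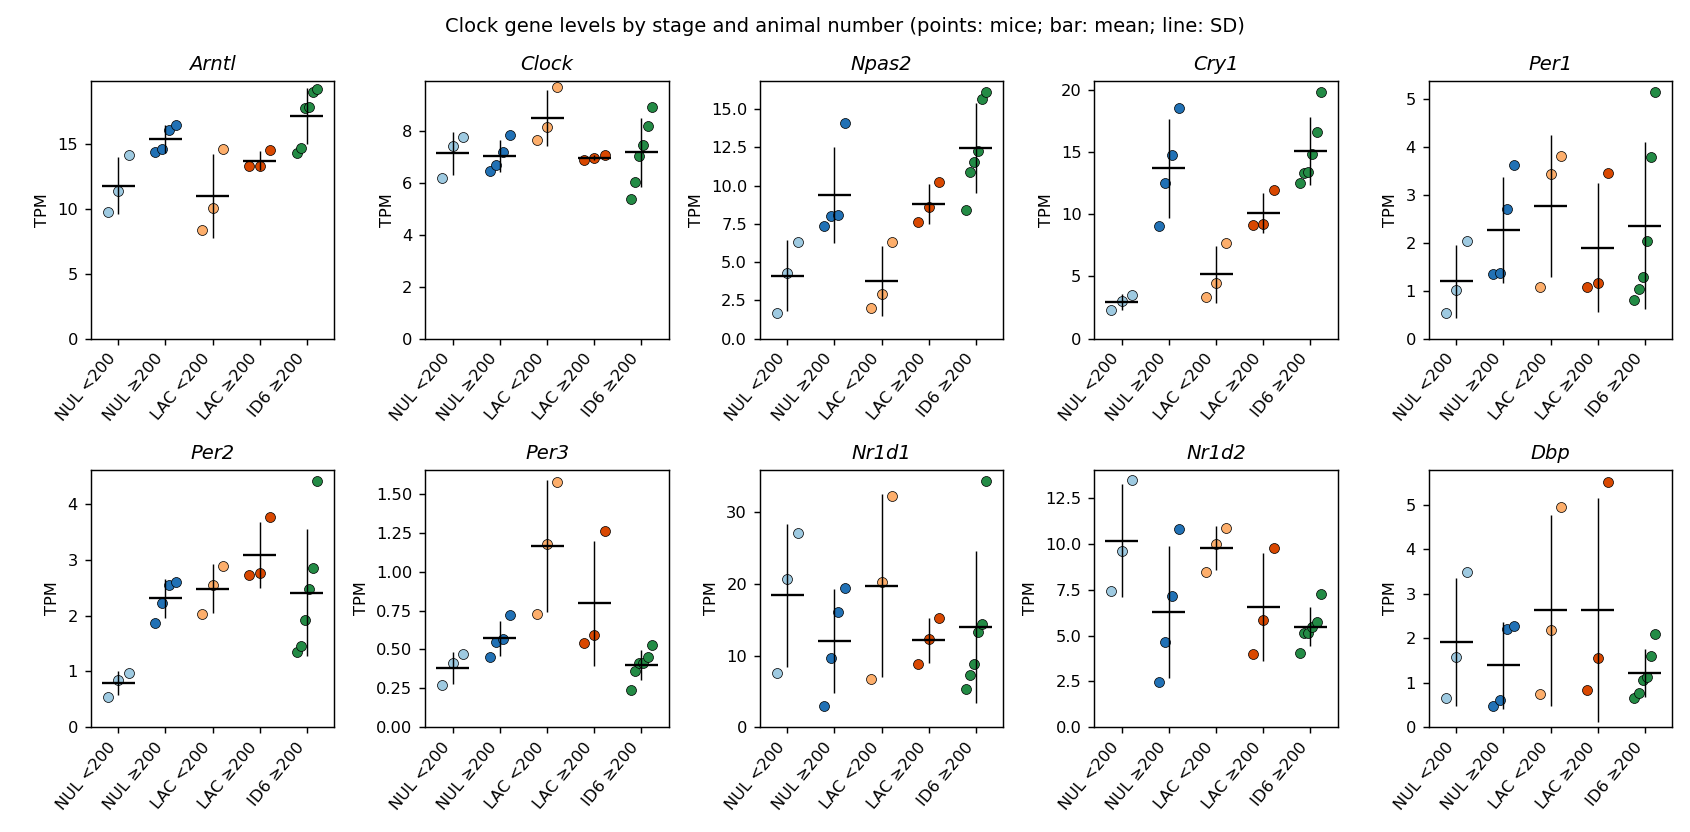
Level of each clock gene in TPM (vertical axis) in each mouse (points), by stage and by range of animal number (horizontal axis), with the group mean (bar) and SD (line). The 6 lower-numbered mice sit below all 13 higher-numbered mice for Cry1, whose highest lower-numbered value is 7.69 TPM and whose lowest higher-numbered value is 9.04 TPM, while the groups of Per1, Nr1d1 and Dbp overlap.

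Genes were tested with limma on log2(TPM + 1), with Benjamini-Hochberg adjustment over the 16230 genes whose mean reached 0.1 TPM, and all 10 clock genes were among these. A gene passed at an adjusted p under 0.05, and changes are given on the log2(TPM + 1) scale, on which the changes of scarce transcripts come out too small. On this scale the largest changes were those of Cry1 and Npas2 between the ranges of animal number. As ratios of mean TPM these were 2.94 and 2.32, and scarce genes differed as widely between stages. Per3 at ID6 was at 0.408 of its LAC mean. Among lower-numbered mice, Per2 and Per3 at LAC were at 3.16-fold and 3.03-fold their NUL means. With the NUL and LAC differences averaged, 5 of the 10 differed between the 7 higher-numbered and the 6 lower-numbered mice, where 27% of all genes tested did. Cry1, Npas2, Per2 and Arntl were higher at 200 and above and Nr1d2 was lower. In NUL mice alone Cry1, Npas2 and Per2 passed, against 21% of all genes, and in LAC mice alone Cry1 and Npas2 passed, against 11.1%. The median change over the 10 genes was 0.02, against 0.05 over all genes tested. The 10 genes and the split at 200 were chosen with earlier results of these data known. The p values between the ranges, here and below, therefore describe these mice and are not an independent test.

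Between stages, with all 19 mice and 1 mean per stage, fewer clock genes passed. That fit leaves differences between the ranges in the spread, while the range comparison takes them out. The 2 sets of counts are therefore not like for like. The SE of Cry1, for example, was 0.17 between the ranges and 0.39 at ID6 relative to LAC. At LAC relative to NUL, 1 of 10 was higher, Per3, where 9.21% of all genes passed. At ID6 relative to LAC, Arntl and Npas2 were higher and Per3 was lower, 3 of 10 against 22.8% of all genes. Between ID6 and NUL 0 of 10 passed in limma, against 4.36% of all genes, and Arntl, Npas2 and Cry1 had unadjusted p under 0.05. The median change of the 10 genes was 0.14 at LAC relative to NUL (all genes -0.03), -0.15 at ID6 relative to LAC (all genes 0.10) and 0.10 at ID6 relative to NUL (all genes 0.07). Among mice numbered 200 and above, 0 of 10 passed in limma at LAC relative to NUL (7.79% of all genes), at ID6 relative to LAC (15.3%) and at ID6 relative to NUL (1.24%). In these comparisons, unadjusted p under 0.05 were found for 0 genes, for Arntl, Per3 and Cry1, and for 0 genes. Unadjusted exact permutation p under 0.05 were found in the same 3 comparisons for Per2, for Arntl, Per3 and Cry1, and for Per3, and with all mice at ID6 relative to NUL for Arntl and Npas2. The comparisons of LAC with NUL and of ID6 with LAC share the LAC mice. Among lower-numbered mice Per2 and Per3 passed at LAC relative to NUL, where 9.47% of all genes did. The change from NUL to LAC did not pass as different between the ranges for any of the 10 genes in limma, against 0.185% of all genes, and Cry1 and Per3 had unadjusted p under 0.05. When a log2 change of at least 1 was also required, 0 clock genes passed at LAC relative to NUL (0.746% of all genes), Npas2 alone at ID6 relative to LAC (1.93%), 0 at ID6 relative to NUL (0.253%), and Cry1 and Npas2 between the ranges (2.05%).

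**Figure D2:**
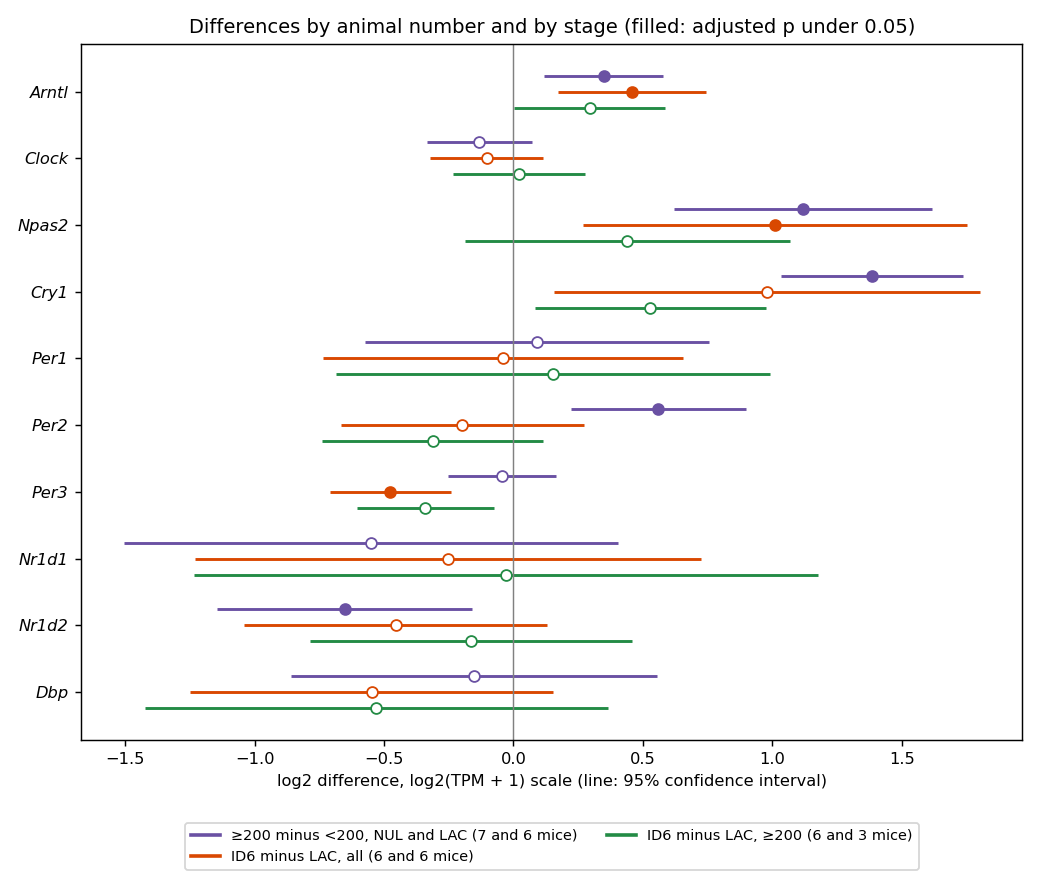
Difference in log2(TPM + 1) for each clock gene (horizontal axis, with 95% confidence interval) between the ranges of animal number, averaged over NUL and LAC, between ID6 and LAC in all mice, and between ID6 and LAC among mice numbered 200 and above. Filled points passed at an adjusted p under 0.05, and Cry1 and Npas2 show the 2 largest differences between the ranges, 1.39 and 1.12.

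Among the activators, Npas2 and Arntl differed by range and Clock did not pass. Npas2 (ENSMUSG00000026077, chr1:39193731-39363236, plus strand of GRCm38) was at 1.7, 4.31 and 6.3 TPM in the lower-numbered NUL mice and at 7.34, 8.04, 8.09 and 14.1 TPM in the higher-numbered ones. In LAC mice it was at 1.99, 2.93 and 6.33 TPM under 200 and at 7.59, 8.58 and 10.2 TPM at 200 and above. At ID6 it ran from 8.42 TPM through a median of 11.9 TPM to 16.1 TPM. Within NUL and LAC, all 7 higher-numbered mice stood above all 6 lower-numbered mice, and the ID6 mice overlapped the higher-numbered mice of both other stages.

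Npas2 was 2.32-fold higher in the higher-numbered range (9.09 against 3.93 TPM, the means of the stage means), a log2 change of 1.12 (SE 0.24) with an adjusted p of 0.00192. The exact permutation test within stages gave p = 0.00143, the smallest that its 700 splits allow. At ID6 relative to LAC Npas2 was higher by a log2 change of 1.01 (SE 0.35, adjusted p = 0.0461 in limma), at 12.5 ± 2.94 against 6.27 ± 3.23 TPM (SD, n = 6 and 6). Among mice numbered 200 and above that change was 0.44 (SE 0.30, adjusted p = 0.362). The ID6 call was also lost without LAC_133 (log2 change 0.86), LAC_36 (0.78) or any of several other mice.

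Arntl (ENSMUSG00000055116, chr7:113207465-113314126, plus strand) encodes BMAL1, the partner that both CLOCK and NPAS2 need. It was at 9.78, 11.4 and 14.2 TPM in lower-numbered and at 14.3, 14.6, 16.1 and 16.5 TPM in higher-numbered NUL mice. LAC mice had 8.38, 10.0 and 14.6 TPM under 200 and 13.3, 13.3 and 14.6 TPM at 200 and above. ID6 mice ran from 14.3 TPM through a median of 17.8 TPM to 19.2 TPM. The ranges did not overlap in NUL and overlapped in LAC, where LAC_102 was as high as the highest of the higher-numbered mice.

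Arntl was higher in the higher-numbered range by a log2 change of 0.35 (SE 0.11, adjusted p = 0.0247; exact permutation p = 0.02). This call was lost without NUL_4, LAC_36, LAC_133 or LAC_200, with log2 changes of 0.27 to 0.33. At ID6 relative to LAC, Arntl was higher by 0.46 (SE 0.14, adjusted p = 0.0218), and 5 of 6 ID6 mice stood above all LAC mice. Among higher-numbered mice the change was 0.29 (SE 0.14), with an adjusted p of 0.169. With the mice scaled by median ratio, which sets the median change of all genes from 0.10 to about 0, the ID6 change of Arntl was 0.30 (adjusted p = 0.0944) and that of Npas2 0.87 (adjusted p = 0.093).

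Clock (ENSMUSG00000029238, chr5:76209868-76304792, minus strand) stayed between 5.4 and 9.72 TPM in all 19 mice. Its mean was 7.09 ± 0.651 TPM in NUL (SD, n = 7), 7.74 ± 1.08 TPM in LAC (n = 6) and 7.18 ± 1.32 TPM in ID6 (n = 6). Between the ranges its log2 change was -0.13 with a 95% confidence interval of -0.33 to 0.07, and between ID6 and LAC -0.10 with an interval of -0.32 to 0.12. Both intervals end far short of the range difference of Npas2, 1.12.

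**Figure D3:**
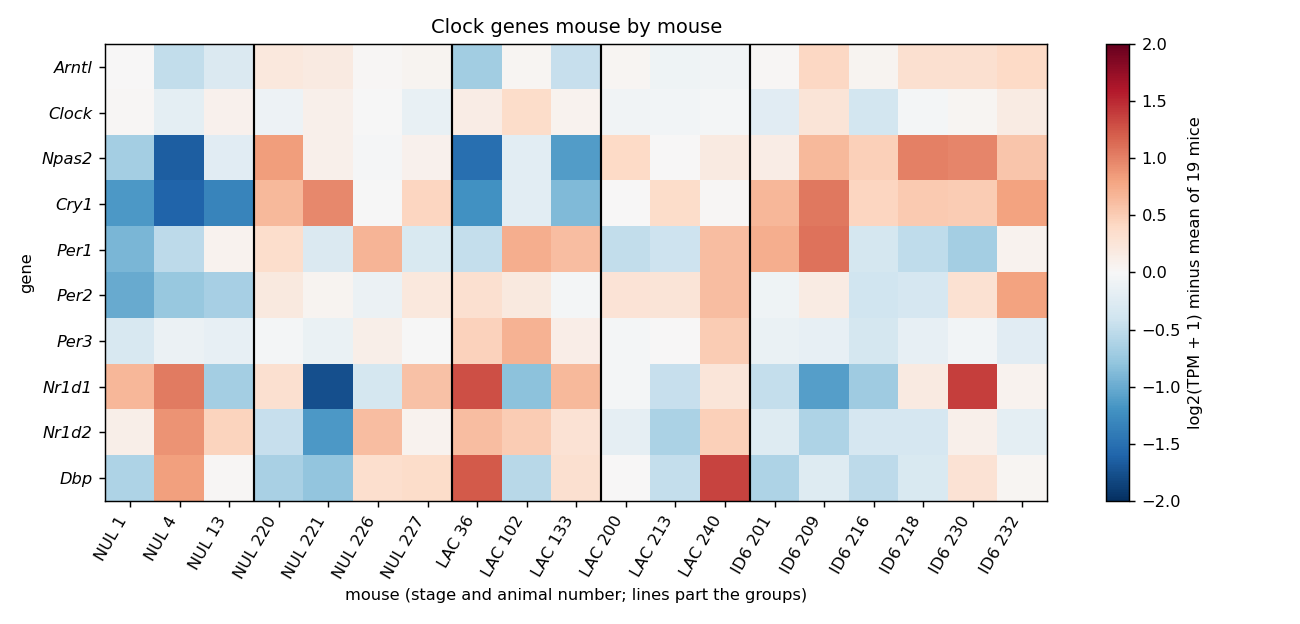
Deviation of log2(TPM + 1) from the mean of the 19 mice (colour) for each clock gene (rows) in each mouse (columns), with lines parting stages and ranges of animal number. Npas2 and Cry1 are blue in the lower-numbered NUL and LAC mice, and Nr1d1 is at its extremes in NUL_221 (3.01 TPM) and ID6_230 (34.4 TPM).

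Among the repressors, Cry1 showed the largest difference of the 10 genes by range, Per2 was higher in the same direction, Per3 passed between stages and Per1 passed in no comparison. Cry1 (ENSMUSG00000020038, chr10:85131700-85185064, minus strand), whose promoter carries the E-box shown above, was at 2.3, 3.01 and 3.51 TPM in the lower-numbered NUL mice and at 9.04, 12.5, 14.7 and 18.5 TPM in the higher-numbered ones. LAC mice had 3.33, 4.45 and 7.69 TPM under 200 and 9.13, 9.2 and 11.9 TPM at 200 and above. ID6 mice ran from 12.5 TPM through a median of 14.1 TPM to 19.8 TPM. No lower-numbered mouse reached any higher-numbered mouse in any stage.

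Between the ranges Cry1 differed by a log2 change of 1.39 (SE 0.17, adjusted p = 9.99e-06), or 11.9 against 4.05 TPM, a ratio of 2.94. The exact permutation test within stages gave p = 0.00286. In NUL the log2 change was 1.87 (SE 0.23, adjusted p = 2.46e-05) and in LAC 0.90 (SE 0.24, adjusted p = 0.0232). The difference between these, -0.97 (SE 0.33), had an unadjusted limma p of 0.00997 and an adjusted p of 0.267. The LAC value lost its call without LAC_36 (0.68), LAC_133 (0.85) or LAC_213 (0.79).

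All 6 ID6 mice also stood above all 6 LAC mice for Cry1, at 15.1 ± 2.75 against 7.62 ± 3.22 TPM (SD; exact permutation p = 0.00216, the smallest that 924 splits allow). The limma change was 0.98 (SE 0.39) and missed the threshold with an adjusted p of 0.0796. Among higher-numbered mice the groups did not overlap either, with a log2 change of 0.53 (SE 0.21, adjusted p = 0.104; exact permutation p = 0.0238 over 84 splits).

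Per2 (ENSMUSG00000055866, chr1:91415982-91459324, minus strand) is a repressor whose transcript is also known to answer directly to systemic signals. Its lowest levels were those of the 3 lower-numbered NUL mice, 0.55, 0.84 and 0.97 TPM. The higher-numbered NUL mice had 1.86, 2.22, 2.55 and 2.6 TPM. LAC mice had 2.02, 2.55 and 2.88 TPM under 200 and 2.73, 2.76 and 3.77 TPM at 200 and above, and ID6 mice ran from 1.35 TPM through a median of 2.2 TPM to 4.42 TPM. The lower-numbered NUL mice stood below all 16 others.

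In limma Per2 was higher in the higher-numbered range by 0.56 (SE 0.16, adjusted p = 0.0151) averaged over the stages, and by 0.89 (SE 0.22, adjusted p = 0.00842) in NUL. In LAC the change was 0.23, with a 95% confidence interval of -0.26 to 0.72. At LAC relative to NUL it was higher by 0.96 (SE 0.23, adjusted p = 0.0157) among lower-numbered mice, where 3 against 3 mice cannot give an exact permutation p below 0.1. That call was lost without NUL_1 (0.86), LAC_102 (0.95) or LAC_36 (0.88). Among higher-numbered mice the LAC and NUL levels did not overlap either, at 3.09 ± 0.592 against 2.31 ± 0.343 TPM (SD, n = 3 and 4; exact permutation p = 0.0286, the smallest possible), while the limma change of 0.30 had an adjusted p of 0.48. With all mice the change was 0.57 (SE 0.22, adjusted p = 0.111), and with range as a covariate it was 0.61 (adjusted p = 0.0229).

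Per3 (ENSMUSG00000028957, chr4:151003652-151044665, minus strand), the least abundant of the 10 genes and the 1 with D-boxes in the stretch printed above, was highest in LAC. Lower-numbered LAC mice had 0.73, 1.18 and 1.58 TPM, and higher-numbered ones 0.54, 0.59 and 1.26 TPM. NUL mice had 0.27, 0.41 and 0.47 TPM under 200 and 0.45, 0.55, 0.57 and 0.72 TPM at 200 and above. ID6 mice ran from 0.24 TPM through a median of 0.41 TPM to 0.53 TPM, below all 6 LAC mice.

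Per3 rose from NUL to LAC by 0.39 (SE 0.11, adjusted p = 0.0296; exact permutation p = 0.00874), or from 0.491 ± 0.141 to 0.98 ± 0.421 TPM (SD, n = 7 and 6). The call was lost without any of NUL_1, NUL_13, NUL_221, LAC_36, LAC_102 or LAC_240, with changes of 0.31 to 0.38. Among higher-numbered mice the change was 0.17 (SE 0.14, adjusted p = 0.522) and among lower-numbered mice 0.63 (SE 0.14, adjusted p = 0.0115), a call lost without NUL_1 (0.57) or LAC_102 (0.49). From LAC to ID6 Per3 fell by 0.48 (SE 0.11, adjusted p = 0.00491; exact permutation p = 0.00216). Leaving out any 1 mouse kept that call. Among higher-numbered mice it was lower by a log2 change of -0.34 (SE 0.13, adjusted p = 0.0776; exact permutation p = 0.0119), with no overlap between 6 ID6 and 3 LAC mice. With median-ratio scaling that value was -0.39 (adjusted p = 0.0436).

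Per1 (ENSMUSG00000020893, chr11:69095217-69109960, plus strand), the PER gene known for fast induction, varied widely within every group. It ran from 0.54 to 3.63 TPM in NUL, from 1.07 to 3.82 TPM in LAC and from 0.81 to 5.15 TPM in ID6. Between the ranges its change was 0.09, with a 95% confidence interval of -0.57 to 0.75, and between ID6 and LAC it was -0.04, with an interval of -0.73 to 0.66.

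The REV-ERB genes and Dbp, which are known to peak together in liver, were spread widely among mice of the same group. Nr1d2 (ENSMUSG00000021775, chr14:18204054-18239127, minus strand), which encodes REV-ERBβ, was at 7.42, 9.6 and 13.5 TPM in lower-numbered and at 2.49, 4.64, 7.18 and 10.8 TPM in higher-numbered NUL mice. LAC mice had 8.5, 10.0 and 10.9 TPM under 200 and 4.01, 5.86 and 9.8 TPM at 200 and above, and ID6 mice ran from 4.07 TPM through a median of 5.31 TPM to 7.3 TPM. The ranges overlapped, with 5 of 7 higher-numbered NUL and LAC mice below all 6 lower-numbered ones. Nr1d2 was lower in the higher-numbered range by a log2 change of -0.65 (SE 0.23, adjusted p = 0.0472; exact permutation p = 0.0429). This value lay close to the threshold, and the adjusted p ran from 0.0102 to 0.128 with each mouse left out in turn.

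Nr1d1 (ENSMUSG00000020889, chr11:98767932-98775333, minus strand), which encodes REV-ERBα, ran from 3.01 to 27.0 TPM in NUL, from 6.71 to 32.2 TPM in LAC and from 5.38 to 34.4 TPM in ID6. Its log2 change between the ranges was -0.55, with a 95% confidence interval of -1.50 to 0.40, an interval wide enough to hold a difference of the size seen for Npas2. Between ID6 and LAC the change was -0.25, with an interval of -1.23 to 0.72.

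Dbp (ENSMUSG00000059824, chr7:45705088-45710203, plus strand) ran from 0.47 to 3.5 TPM in NUL, from 0.74 to 5.52 TPM in LAC and from 0.65 to 2.1 TPM in ID6. The highest values were those of LAC_240 (5.52 TPM) and LAC_36 (4.96 TPM), 1 in each range. Its change was -0.15 between the ranges, with a 95% confidence interval of -0.86 to 0.56, and -0.55 between ID6 and LAC, with an interval of -1.25 to 0.15.

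The genes also varied together among mice of the same stage and range. Deviations from the means of the 5 groups of stage and range were correlated over the 19 mice for all 45 pairs, with 100000 permutations within groups and Benjamini-Hochberg adjustment over the pairs. Of these, 6 passed, 4 positive and 2 negative. Genes outside the list also reached such values within groups, Lgalsl with Arntl (r = 0.798) and Tns2 with Dbp (r = 0.849). Both came from the genes picked as most alike among 11595, so high values follow from the choice. The share of all gene pairs that would pass was not computed, so the count of passing clock pairs has no such background. Arntl varied with Cry1 (r = 0.737, rho = 0.698) and with Clock (r = 0.71, rho = 0.732), and Nr1d2 with Dbp (r = 0.755, rho = 0.754) and with Per3 (r = 0.619, rho = 0.736). Cry1 ran against Nr1d2 (r = -0.688, rho = -0.611) and against Dbp (r = -0.697, rho = -0.658). Adjusted p of r, by permutation, were 0.0276 for Arntl with Cry1, Nr1d2 with Dbp, Nr1d2 with Per3 and Cry1 with Nr1d2, 0.0396 for Arntl with Clock and 0.0469 for Cry1 with Dbp. By rho the pairs that passed were Per3 with Nr1d2 and Arntl with Npas2 (permutation adjusted p = 0.0473 for both), and the latter had r = 0.745 with an adjusted p of 0.0585. Without the 2 mice farthest from the median of 1 gene of the pair, the 6 values of r were 0.567, 0.753, 0.801, 0.58, -0.727 and -0.594 in the order named. That gene was Arntl, Arntl, Nr1d2, Per3, Cry1 and Cry1, and mice extreme only in the other gene stayed in.

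The values in the 13 higher-numbered and the 6 lower-numbered mice describe how the 6 pairs, chosen on all 19 mice, are made up. Arntl with Cry1 had r = 0.489 and 0.98, Arntl with Clock 0.817 and 0.77, and Nr1d2 with Dbp 0.843 and 0.682. Nr1d2 with Per3 had r = 0.685 and 0.565, Cry1 with Nr1d2 -0.834 and -0.424, and Cry1 with Dbp -0.509 and -0.95. Other pairs had values farther apart, among them Npas2 with Cry1 (0.0287 and 0.843) and Npas2 with Nr1d1 (0.497 and -0.927). Arntl with Nr1d1 was another (0.0861 and -0.675), and none of these passed over all mice. These other pairs were picked for their contrast, and no difference in r between the ranges was tested. In the lower-numbered range r rests on 6 mice centred on their NUL and LAC means, which leaves few free deviations. The values therefore cannot tell whether the genes vary together differently between the ranges.

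**Figure D4:**
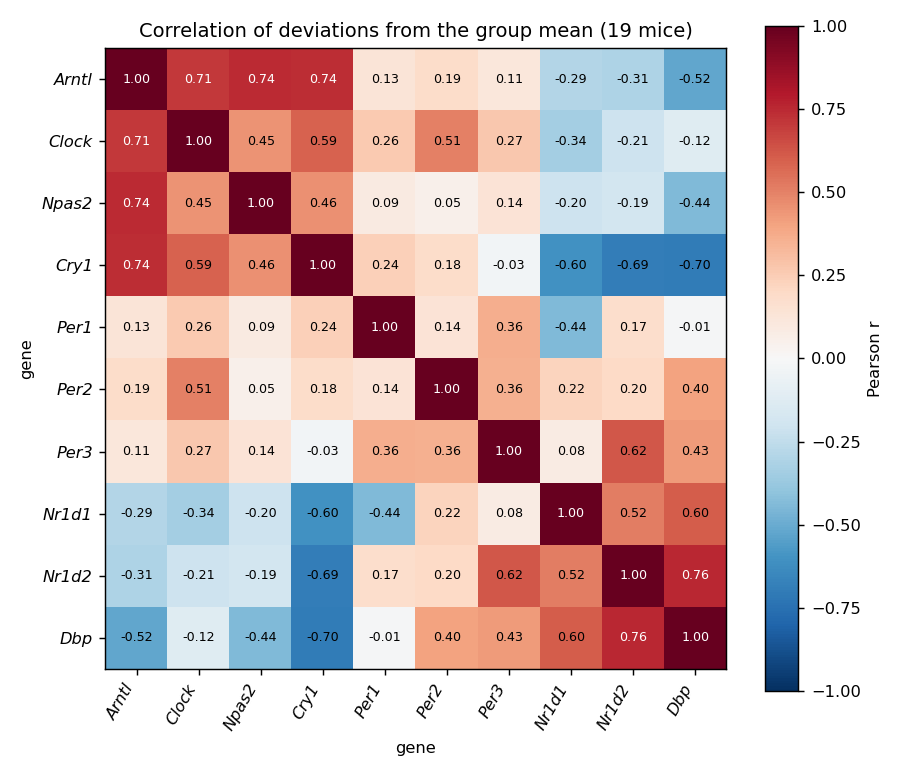
Pearson r of the deviations of log2(TPM + 1) from the means of the 5 groups of stage and range for each pair of clock genes over the 19 mice (colour and printed value). The values among Arntl, Clock, Npas2 and Cry1 run from 0.45 to 0.74 and those among Nr1d1, Nr1d2 and Dbp from 0.52 to 0.76, and 6 of the 45 pairs passed.

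The genes most like Arntl over the 19 mice, among 11595 genes averaging 1 TPM or more, were Lgalsl (r = 0.915), Pde2a (0.888), Pacs1 (0.885), Cd47 (0.883) and Efnb1 (0.879). Those most like Dbp were Cntrob (0.696), Hmga1 (0.687), Klb (0.681), Tns2 (0.665) and Eepd1 (0.664). These values describe 19 mice that share stages and ranges, and no test was made of them.

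Of 16 other clock genes listed, 13 passed the filter on low values, and 4 of the 13 were higher in the higher-numbered range and 0 lower, a share near the 27% of all genes that passed. Among them were the E-box repressor Bhlhe40 (log2 change 0.90), the D-box repressor Nfil3 (0.38) and the ubiquitin ligase component Btrc (0.23). The median of the 13 was 0.13, against 0.05 over all genes tested. From LAC to ID6, 5 of 13 rose where 22.8% of all genes passed, among them Nfil3 (0.57), Fbxl21 (0.34), Btrc (0.32) and Csnk1d (0.22), and among higher-numbered mice Nfil3 alone did (0.46, SE 0.14, adjusted p = 0.0274), where 15.3% of all genes passed. With all mice, Fbxl21 fell by 0.34 from NUL to LAC (9.21% of all genes passed) and Nfil3 rose by 0.58 between NUL and ID6 (4.36%). Among higher-numbered mice 0 of 13 passed in either comparison in limma, against 7.79% and 1.24% of all genes. The values were -0.27 for Fbxl21 (adjusted p = 0.252) and 0.35 for Nfil3 (adjusted p = 0.216). Nfil3 at ID6 was tightly grouped, from 36.9 to 40.4 TPM.

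Of 14 genes known as rhythmic outputs of the liver clock, 6 were lower and 1 was higher in the higher-numbered range, where 27% of all genes passed (2794 higher and 1593 lower), and the median was -0.23 against 0.05 over all genes. Elovl3, a fatty acid elongase whose transcript is known to be strongly rhythmic, was lower by a log2 change of -2.68 (SE 0.09, adjusted p = 6.61e-13). Its levels were 9.11 to 15.1 TPM in lower-numbered NUL and 2.2 to 3.14 TPM in lower-numbered LAC mice, and at most 0.1 TPM in all higher-numbered mice. The uridine phosphorylase Upp2 (-1.03), the xenobiotic receptor CAR gene Nr1i3 (-0.94), its target Cyp2b10 (-0.96), the P450 reductase Por (-0.49) and Insig2 (-0.36) were lower too, and the vasopressin receptor gene Avpr1a was higher (0.35). With all mice, Wee1, Usp2 and Por rose from NUL to LAC (0.44, 0.53 and 0.56), where 9.21% of all genes passed. From LAC to ID6, where 22.8% passed, Wee1, Usp2, Por and Cyp2b10 fell (by 0.55, 0.42, 0.76 and 1.76) and Avpr1a rose by 0.57. From NUL to LAC among lower-numbered mice, 6 of 14 rose and 1 fell, where 9.47% of all genes passed. Among higher-numbered mice 0 of 14 passed in limma for that change, where 7.79% of all genes did. There the values of Wee1, Usp2 and Por were 0.38, 0.37 and 0.23 (adjusted p = 0.123, 0.25 and 0.404). Among higher-numbered mice Wee1 (-0.54, adjusted p = 0.00977) and Cyp2b10 (-1.27, adjusted p = 0.00119) were lower at ID6 than at LAC, and Nr1i3 was higher (0.48, adjusted p = 0.0396). In that comparison 15.3% of all genes passed. At ID6 relative to NUL Cyp2b10 was lower by a log2 change of -1.01 with all mice, where 4.36% of all genes passed. Among higher-numbered mice 0 of 14 passed in limma, against 1.24% of all genes, and the value of Cyp2b10 was -0.61 (adjusted p = 0.209).

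Genes that answer to signals known to shift the liver clock were also compared by range, where 27% of all genes passed, and their part in the clock gene differences was not tested. In the fasting list 2 of 8 were lower in the higher-numbered range, Igfbp1 (-2.66) and Angptl4 (-1.11), a share near that of all genes. In the feeding list 4 of 6 were higher, among them Pnpla3 (1.35), Srebf1 (0.95) and Pklr (0.76). Of 5 glucocorticoid targets Sgk1 was higher (0.71) and Tat lower (-0.65). Of 7 genes of the heat and cold response 4 were higher, Hspa1b (1.72), Hsph1 (0.99), Hspa8 (0.73) and Dnajb1 (0.68). In limma 2 of the 7 were higher in NUL alone (21% of all genes passed) and 0 passed in LAC alone (11.1%). This list also holds genes known to answer to cold, so its median mixes both kinds. The medians of the 4 lists were -0.20, 0.86, 0.23 and 0.73, against 0.05 over all genes. Hspa1b shares most of its sequence with Hspa1a, so its value is uncertain.

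From LAC to ID6 among higher-numbered mice, where 15.3% of all genes passed, 5 of 6 feeding genes fell and 3 of 8 fasting genes rose, with 0 of 5 glucocorticoid targets and 2 of 7 heat and cold genes passing (Cirbp 0.66 and Rbm3 0.91, both known to answer to cold). From NUL to LAC in the same range, where 7.79% passed, 5 feeding genes rose, 4 fasting genes fell and Rbm3 was lower by a log2 change of -0.66. With all mice, 3 of 6 feeding genes were higher and 2 of 8 fasting genes lower from NUL to LAC, where 9.21% of all genes passed. From LAC to ID6, where 22.8% passed, 1 of 6 feeding genes was higher and 2 were lower, and 1 of 8 fasting genes was higher.

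The levels of markers of other liver cell types are given beside these results, and their part in the clock gene differences was not tested. In bulk tissue, fewer cells of a type and less RNA per cell cannot be told apart. The summed level of 8 Kupffer cell and leukocyte markers was 148 to 190 TPM in lower-numbered and 239 to 284 TPM in higher-numbered NUL mice. It was 97.8 to 137 TPM and 144 to 203 TPM in LAC mice and 332 to 470 TPM in ID6 mice, and 8 of 8 of these markers rose from LAC to ID6 (22.8% of all genes passed), and 6 of 8 among higher-numbered mice (15.3%). Between the ranges 4 of 8 were higher, where 27% of all genes passed. The 4 sinusoidal endothelial markers summed to 101 to 130 TPM in NUL, 56.2 to 104 TPM in LAC and 133.3 to 149.9 TPM in ID6, sums made up mostly of Clec4g. Of these 4, 1 was lower at LAC than at NUL (9.21% of all genes passed) and 2 were higher at ID6 than at LAC (22.8%). The 4 stellate cell and fibroblast markers summed to 118 to 148 TPM, 83.0 to 101 TPM and 113 to 150 TPM, mostly Dcn. Between the ranges 0 of these 4 passed in limma, against 27% of all genes. The 4 cholangiocyte markers summed to between 1.85 and 4.0 TPM in all mice and did not pass in the stage comparisons or between the ranges. The 4 erythroid markers summed to 777 to 1585 TPM in NUL, 875 to 2194 TPM in LAC and at most 594 TPM (median 187 TPM) in ID6. None of these markers was at 0 in any mouse.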

How the data were processed

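Per the labels and the study's methods, poly(A) RNA from flash frozen liver was sequenced with paired-end reads and aligned to GRCm38. The submitters' processing notes name RSEM 1.3.1. The authors deposited TPM for 51826 gene entries, a unit that keeps no depth. RSEM shares ambiguous reads among genes by estimation, so near-identical paralogs are uncertain. The study's DESeq2 test needs read counts and was not repeated. Here log2(TPM + 1) was tested with limma 3.58.1 (trend, R 4.3.3) over 16230 genes averaging 0.1 TPM or more, with 1 mean per stage, and in a second fit with 5 means of stage and range of animal number (under 200, or 200 and above). Exact permutation tests were two-sided on mean TPM, within stage for ranges. Correlations used 100000 permutations (Python 3.11.15, numpy 2.4.6). In simulated data, limma called 197 of 200 genes changed by a log2 of 1.5 and 11 unchanged genes at LAC relative to NUL. Positions are from GENCODE on GRCm38. The 10 genes, the split at 200 and the gene lists were chosen with earlier results of these data known. Named besides the 10 genes were listed genes that passed, some of which are not reported here, and, for Arntl and Dbp, the 5 most alike genes. No pair of mice had identical values.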

Additional observations from a re-analysis of the deposited data

Results flagged for a closer look

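Of 40 groups of 4 to 7 mice checked for the 10 clock genes, 2 held a mouse far from the others, and chance gives about 1 in 20. Npas2 was at 14.1 TPM in NUL_220 and at 8.09 TPM in the next of the higher-numbered NUL mice, so that the gap took up 0.889 of the spread from lowest to highest. Without NUL_220 the log2 change of Npas2 between the ranges in NUL was 0.90 (adjusted p = 0.0677), and averaged over NUL and LAC the call held. Nr1d1 was at 34.4 TPM in ID6_230 and at 14.4 TPM in the next ID6 mouse, so that the gap took up 0.689 of the spread.

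Among the listed genes, the change of Elovl3 from NUL to LAC differed between the ranges of animal number by 1.67 on the log2(TPM + 1) scale (SE 0.19, adjusted p = 0.000356 in limma). It was -1.70 among lower-numbered mice and -0.03 among higher-numbered mice, where Elovl3 was at most 0.08 TPM in NUL and 0.05 TPM in LAC.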

How the results depend on the processing

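The number of the 10 clock genes that passed depended on several choices. At LAC relative to NUL, 1 gene passed, and 0 with a filter of at least 1 TPM (which removes Per3), 0 with only these stages fitted, 0 with only mice numbered 200 and above, 0 with a log2 change of at least 1, 2 with range as a covariate, and 0 to 1 without each mouse. At ID6 relative to LAC, 3 passed, and 1 with median-ratio scaling, 1 with range as a covariate, 0 with only mice numbered 200 and above, 1 with a log2 change of at least 1, and 1 to 3 without each mouse (1 without LAC_133, LAC_36 or ID6_209). Among higher-numbered mice this count was 0, with 1 under median-ratio scaling and 0 to 1 without each mouse (1 without LAC_133). At LAC relative to NUL under 200, 2 passed, with 1 under the 1 TPM filter and 0 to 2 without each mouse. Between the ranges 5 passed on average, with 2 at a log2 change of at least 1 and 3 to 5 without each mouse (3 without NUL_4, LAC_36, LAC_133 or LAC_200). In NUL mice 3 passed, with 2 to 4 without each mouse. In LAC mice 2 passed, with 1 without any filter and 0 to 3 without each mouse (0 without LAC_36, LAC_133 or LAC_213). Apart from the main fit and the cut on log2 change, the share of all genes that passed was not computed for these settings. These counts therefore cannot tell a change in the clock genes from a change in all genes. The causes of changes under scaling and covariates were not tested.

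Of 110 values (10 genes in 11 comparisons), 22 passed in some setting, and their direction was kept in all settings run. The other 88 passed in none, and 48 of them changed sign in at least 1 setting. Cry1, Npas2 and Per2 between the ranges, averaged over the stages, passed without any 1 mouse. No paired analysis was possible because the animal numbers are not shared between stages. With TPM alone, depth and its limits on low genes such as Per3 are unknown.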
